A study of Mus musculus with 2 samples.

Results

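Microglia are the resident macrophages of the brain, and the cells described here are the barcodes of mouse glioblastoma tumors that carried transcripts of microglia marker genes. A barcode was taken when at least 2 of P2ry12, Tmem119, Siglech, Gpr34 and P2ry13 had a unique molecular identifier (UMI, a tag that counts captured molecules), when C1qa, C1qb and C1qc held 3 or more UMIs together, and when Olig1, Olig2 and Ptprz1, which the tumor cells express, held at most 3 UMIs together. Of 56943 barcodes in the files, 54574 passed quality control (200 genes or more, no more than 10% of UMIs from mitochondria, and 0.8 or more for the ratio of log10 gene number to log10 UMI number), and 933 of those met the rule. As the rule read these cells' own counts, the levels of its genes are a description and were not tested. The cells, chosen by these UMI counts, are called microglia-marker cells, because part of what was measured in them went against the name microglia.

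The tumors grew from mGSC, a line of glioblastoma stem cells with the genotype Trp53+/- and Nf1+/-, placed in the brains of C57BL/6J mice, so both groups shared the same tumor genotype and the hosts kept their own immune system. Mice in the Vehicle group took the carrier and mice in the Xevinapant group took Xevinapant, by mouth each day for 1 week. The labels give no age. Each group was deposited as 1 pooled library with 4 matrices, and all cells of the tumor entered although the labels name the cell type as GBM stem cell.

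Microglia survey the brain through purinergic receptors such as P2RY12 and P2RY13, clear synapses and debris with the help of the complement proteins C1q, and depend on signaling by transforming growth factor beta. In brain tumors they share the tissue with macrophages that descend from blood monocytes, and both are counted among the tumor-associated macrophages. Xevinapant is a SMAC mimetic, a small molecule that binds inhibitor of apoptosis (IAP) proteins, and loss of the cellular IAPs turns on the noncanonical arm of NF-kB.

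Not all matrices were counted as separate samples. In 3 pairs of matrices the makeup of cell classes gave chi-square values, divided by their degrees of freedom, from 1.71 to 1.91, against 7.52 to 65.1 in the 9 other pairs within a group, and gene levels in the microglia-marker cells differed by 0.980 to 1.18 times the sampling variance against 1.53 to 3.70 times. In the tumor cells the same 3 pairs differed by 1.97 to 10.3 times the sampling variance, so they were alike but not identical, against 37.9 to 131 times for the others. The pairs were joined, which left 5 samples, whose values are listed with the vehicle samples first (matrices 1 and 3, then matrix 2, then matrix 4) and the Xevinapant samples last (matrices 1 and 2, then matrices 3 and 4). With 3 samples against 2 the exact permutation test cannot give a p below 0.1. Library pool, batch date and the labelled RNA type (total RNA for vehicle, polyA RNA for Xevinapant) followed the treatment and cannot be told apart from it. Of the 56943 barcodes in the files, counting every copy, 2826 had a copy in the other group and none had a copy within its group. 2 microglia-marker cells shared a barcode. Of the microglia-marker cells 24.8% sat in a droplet with another barcode of the group, against 27.2% of all barcodes past quality control.

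P2ry12 and P2ry13, receptors for ADP that lie near each other on chromosome 3, were the purinergic genes of the rule, and Fcrls, an Fc receptor-like scavenger gene of microglia, was a gene outside the rule that followed them. Their promoters are shown because P2ry12 and P2ry13 belong to the rule and Fcrls stood higher in cells with 3 or more rule genes than with 2. Each runs from 250 bases before to 50 bases after the start in RefSeq (GRCm38.p6, minus strand), and capitals mark GAGGAAG, a site of the myeloid factor PU.1, searched on both strands.
P2ry12, chr3:59262936-59263235: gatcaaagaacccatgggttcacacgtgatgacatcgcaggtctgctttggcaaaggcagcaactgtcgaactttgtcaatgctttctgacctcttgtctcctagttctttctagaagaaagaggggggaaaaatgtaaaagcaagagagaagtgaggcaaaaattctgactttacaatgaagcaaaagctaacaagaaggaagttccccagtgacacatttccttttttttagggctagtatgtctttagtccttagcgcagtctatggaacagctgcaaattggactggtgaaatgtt
P2ry13, chr3:59210833-59211132: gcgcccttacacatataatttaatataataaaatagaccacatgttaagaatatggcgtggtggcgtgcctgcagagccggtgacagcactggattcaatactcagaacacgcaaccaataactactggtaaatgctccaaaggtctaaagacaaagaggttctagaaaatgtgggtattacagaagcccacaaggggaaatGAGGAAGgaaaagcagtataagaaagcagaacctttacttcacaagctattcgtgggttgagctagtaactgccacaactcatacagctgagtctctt
Fcrls, chr3:87263475-87263774: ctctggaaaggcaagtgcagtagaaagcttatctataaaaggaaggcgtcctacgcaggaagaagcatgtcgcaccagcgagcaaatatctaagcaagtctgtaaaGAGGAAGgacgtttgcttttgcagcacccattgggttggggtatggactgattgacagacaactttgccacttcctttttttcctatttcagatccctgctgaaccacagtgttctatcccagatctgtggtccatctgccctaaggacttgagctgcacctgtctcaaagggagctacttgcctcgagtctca
The P2ry13 and Fcrls windows held 1 match each and the P2ry12 window held 0, as did the window of Siglech, which is not shown. Of all 32851 promoters 13.6% held a match, and a match by itself shows no binding.

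Tmem119, a membrane protein of mature microglia, was the rule gene found in most microglia-marker cells, with a UMI in 87.2% of 933. P2ry12 was detected in 71.4%, P2ry13 in 64.1% and Gpr34, a receptor for lysophosphatidylserine, in 43.8%. Siglech, a sialic acid receptor, was detected in 4.50%, which made it nearly silent as a marker here. The combinations found most often were P2ry12 with Tmem119, Gpr34 and P2ry13, in 161 cells, P2ry12 with Tmem119, in 159, and P2ry12 with Tmem119 and P2ry13, also in 159. Neutrophils, taken as barcodes with at least 5 UMIs of S100a8 and S100a9 together and at most 2 of C1q, gave the background. P2ry12 was detected in 7.45% of 322 neutrophils, Tmem119 in 2.17% and P2ry13 in 17.4%, at a median of 1503 UMIs against 7052 in the microglia-marker cells. Among tumor cells, the barcodes with more than 3 UMIs of Olig1, Olig2 and Ptprz1 (median 16051 UMIs), Tmem119 was detected in 24.1%, far more than P2ry12 (4.64%), P2ry13 (1.64%) or Gpr34 (1.21%).

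Genes that the rule did not use gave a divided picture of identity. They were set beside a macrophage gate, which took the same C1q and tumor limits, none of the 5 rule genes and at least 2 of Ms4a7, Mrc1, Tgfbi, Ccr2, Thbs1 and Arg1, and it held 582 cells with a median of 2669.5 UMIs. Fcrls was detected in 85.6% of microglia-marker cells against 52.6% of the macrophage gate and 0 of 322 neutrophils, which allows a share of up to 0.932% with a UMI at the lower depth of neutrophils and sets no limit on cells that express it. Sall1, a transcription factor that defines microglia, was detected in 7.40% of them, close to the 7.14% of neutrophils. It was detected in 76.7% of the tumor cells, and the part of tumor transcripts in its counts was not tested. Slc2a5, a fructose transporter of microglia, was detected in 2.04%. Macrophage transcripts were common at the same time, since only 63 of the 933 cells had at most 1 of the 6 macrophage genes. Ms4a7, a gene of border and infiltrating macrophages, had a UMI in 92.6% of microglia-marker cells and 80.1% of the macrophage gate. Its level was higher in the microglia-marker cells in all 5 samples (log2 ratios of 0.20 to 0.59), although the gate used it. Mrc1, the mannose receptor of perivascular macrophages, had a UMI in 62.0%. Cx3cr1 and Olfml3 were not analysed here.

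Fcrls, Apoe and Ms4a7 stood higher in cells with more rule genes detected, and Arg1 stood lower, while Mrc1 differed between the groups in this. Levels are given in CPM, the UMIs of a gene per 1000000 UMIs summed over the cells. Over the 453 cells with 2 rule genes, Fcrls stood at 1189 CPM, and it stood at 1881 in the 303 cells with 3 and at 3001 in the 171 cells with 4. Apoe, the lipid carrier of reactive microglia, stood at 32477, 38501 and 45873 CPM in the same order. In the 6 cells with all 5 rule genes Fcrls was at 1274 and Apoe at 31236, so these few cells did not continue the order. Within each of the 5 samples Fcrls and Apoe were higher in cells with 3 or more rule genes than in cells with 2. For Fcrls the levels were 1284 and 2411 CPM in vehicle 4, and 933 and 1730 in Xevinapant 1 and 2. Ms4a7 stood at 901, 1082 and 1367 CPM with 2, 3 and 4 rule genes. It too was higher with 3 or more than with 2 in every sample. Arg1, the arginase of suppressive tumor macrophages, stood at 889, 344 and 31.8 CPM over all samples, and most of that difference came from the Xevinapant samples, as the values by sample given with the treatment comparison show. Mrc1 was higher with 3 or more rule genes than with 2 in the vehicle samples (285 and 595, 282 and 702, 169 and 250.1 CPM) and lower in the Xevinapant samples (1470.2 and 699.8, 821 and 295), so its pooled levels are no order of the cells. Depth differed along these steps too, with medians of 5448, 7457 and 10502 UMIs, and a deeper cell more easily shows a further rule gene. Just outside the rule, 778 C1q-positive cells with 1 rule gene held Fcrls at 747 and Arg1 at 1817 CPM. A further 45 barcodes met the marker and tumor limits but had fewer than 3 UMIs of C1q. The tumor limit removed 790 barcodes with markers and C1q, of which 114 held 4 to 6 tumor UMIs. Those 790 had a median of 29830.5 UMIs, and 38.0% were among the highest doublet scores, against 2.25% of the microglia-marker cells.

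**Figure D1:**
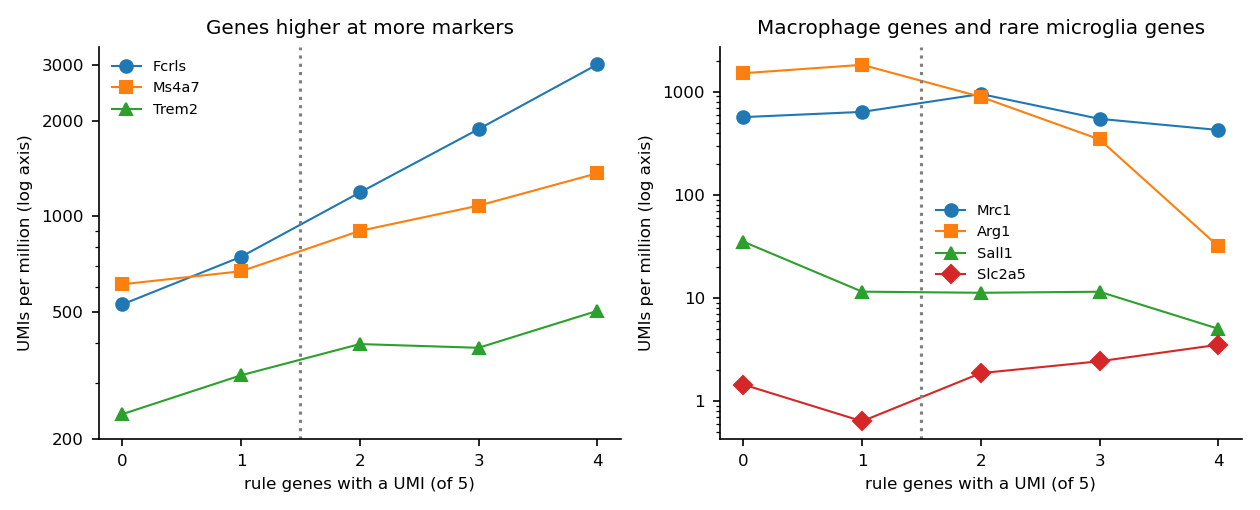
CPM (log axes) of 7 genes, summed over the C1q-positive myeloid cells of all samples with 0 to 4 of the 5 rule genes detected. Cells right of the dotted line met the rule. Fcrls reaches 3001 CPM at 4 rule genes, Arg1 drops to 31.8, and Sall1 and Slc2a5 stay low throughout.

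Against the macrophage gate, the microglia-marker cells held more of the transcripts that are typical of microglia at rest. Of the homeostatic microglia genes outside the rule, 29 had at least 20 CPM in either population. Among these, 20 were higher in the microglia-marker cells in all 5 samples and 2 were lower in all 5. Over all 8252 genes at that level, 10.6% were higher in all 5 and 13.9% were lower in all 5. Fcrls had log2 ratios of 1.78, 1.09, 1.65, 1.28 and 1.86, so it was higher in every sample. Csf1r, the receptor for the growth factor that microglia live on, had a median log2 ratio of 0.74. Sall1, which most tumor cells also carried, did not share this pattern, with a median log2 ratio of -0.99 at 11.0 CPM. Since the rules that made both populations read the same cells, these ratios are not tests. The macrophage gate summed to 221033, 99280 and 165186 UMIs in the vehicle samples, and to 1357990 and 703312 in the Xevinapant samples. Low levels in the vehicle samples of the gate therefore rest on few UMIs.

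By size, Ptgs1, the constitutive cyclooxygenase, led the genes that were higher in microglia-marker cells, with a median log2 ratio of 3.06 (326 against 58.3 CPM). Tlr12, a Toll-like receptor, followed at 2.53, Mmp2, a matrix metalloproteinase, at 2.41 and Siglece, an inhibitory sialic acid receptor, at 2.10. Spint1, a protease inhibitor gene, stood at 2.09, Vcam1, an adhesion molecule, at 1.98 and Lpcat2, an enzyme of platelet-activating factor synthesis, at 1.90. Pald1, Tagap and Itgal, the integrin chain of LFA-1, completed the 10 leading genes at 1.88, 1.77 and 1.76. All 10 were higher in all 5 samples, but Siglece ranged from 0.13 to 6.83. The 6.83 came from vehicle 2, where the macrophage gate held only 28 cells and 99280 UMIs. At the other end, Chil3, a chitinase-like gene of monocytes and alternatively activated macrophages, was lower in every sample (median -3.73, 9.90 against 207 CPM). Sdc1 and Col4a1, a basement membrane collagen, were also lower in every sample, with medians of -2.83 and -2.67. Saa3 and Retnla had medians of -4.93 and -2.82 but were higher in some samples.

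**Figure D2:**
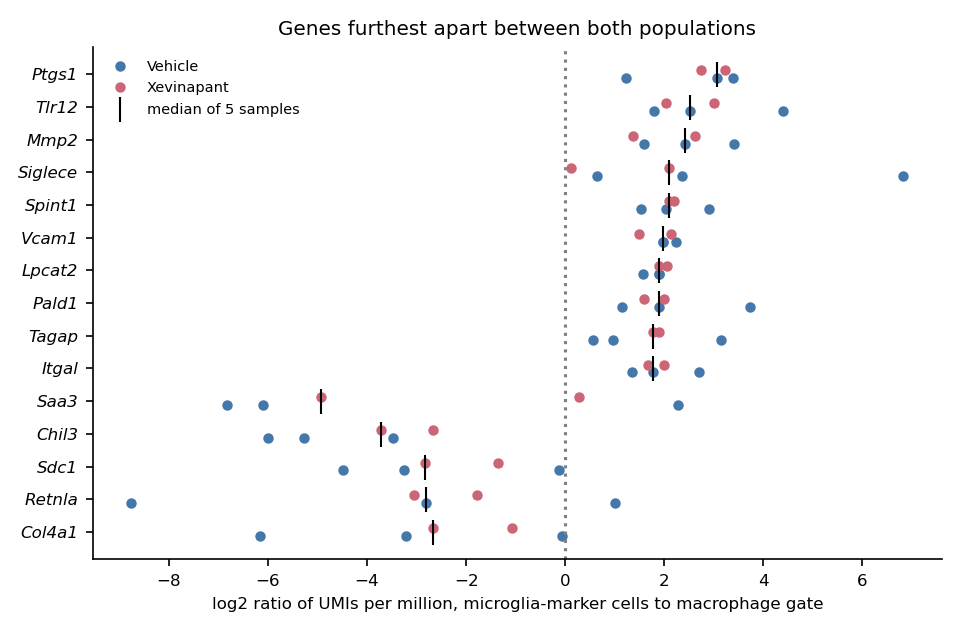
Log2 ratio of CPM (with 1 added) in microglia-marker cells to the macrophage gate, for the 10 genes with the highest and the 5 with the lowest median, colored by treatment, 1 point for each of 5 samples. The points of Vcam1 and Lpcat2 lie within 1.49 to 2.24, and Siglece, Saa3 and Retnla spread over more than 6 log2 units.

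Cell cycle transcripts were also more abundant in the microglia-marker cells. Of 43 listed cell cycle and E2F target genes, 32 were higher than in the macrophage gate in all 5 samples and 0 lower. Over all 8252 genes, 10.6% were higher in all 5 and 13.9% were lower in all 5. Mki67, the marker of dividing cells, had log2 ratios of 0.83, 2.02, 0.97, 0.51 and 0.99. Counted per cell after thinning each to 2000 UMIs, 213 of 845 microglia-marker cells (25.2%, Wilson 95% interval 22.4 to 28.2) had at least 3 of 9 cell cycle genes, against 47 of 354 macrophage-gate cells (13.3%, 10.1 to 17.2) and 8 of 78 neutrophils (10.3%, 5.29 to 19.0). Thinning left out 88, 228 and 244 shallower cells, and without it the shares were 47.8%, 20.6% and 6.83%. These intervals cover counting error only. Mki67 stood at 48.4% to 69.7% of its level in the tumor cells of the same sample, whereas the summed tumor marker list stood at 4.08% to 8.59%, a level that the rule's own limit on tumor UMIs lowered. In the macrophage gate the tumor list was higher (5.42% to 15.0%) and Mki67 lower (15.8% to 35.4%). In neutrophils, which had no tumor limit, the tumor list stood at 12.9% to 107% and Mki67 at 4.94% to 83.5%. The part of tumor transcripts in the cell cycle counts was not tested.

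Microglia-marker cells made up a larger share of the Xevinapant tumors and a smaller share of their C1q-positive myeloid cells, without separation by the exact test. They were 1.58%, 1.42% and 1.23% of barcodes past quality control in the vehicle samples and 2.63% and 1.84% in the Xevinapant samples. Both Xevinapant values lay above all vehicle values, with means of 1.41% ± 0.177 (SD, n = 3) and 2.24% ± 0.554 (n = 2; exact permutation p = 0.1, two-sided, the smallest possible). With each of the 4 matrices per group counted as a sample, the difference of 0.783 percentage points gave an exact permutation p of 0.0286. That p takes the near-alike pairs of matrices as independent samples. Without Xevinapant 1 and 2 the difference was 0.434 percentage points. With at least 3 rule genes required, the shares were 0.807% ± 0.0922 and 1.04% ± 0.217, the difference was 0.235 percentage points (exact permutation p = 0.2) and the groups were no longer separated. Of all C1q-positive myeloid cells they were 35.5%, 49.5% and 41.3% in vehicle and 27.6% and 34.6% in Xevinapant, both below all vehicle values (42.1% ± 7.06 against 31.1% ± 4.95, exact permutation p = 0.2). The macrophage gate held 0.833%, 0.392% and 0.461% of barcodes in vehicle and 2.82% and 1.07% in Xevinapant (0.562% ± 0.237 against 1.94% ± 1.24, exact permutation p = 0.1), and without Xevinapant 1 and 2 that difference was 0.504 percentage points instead of 1.38. Tumor cells made up most of the barcodes, so more microglia-marker cells and fewer tumor cells cannot be told apart in these shares. Depth differed in step, with median UMIs per microglia-marker cell of 5781, 6379, 6326, 9956 and 6771 in the order given (exact permutation p = 0.1), and its part in the shares was not tested. Median mitochondrial shares were 1.07% ± 0.0797 in vehicle and 0.736% ± 0.105 in Xevinapant (exact permutation p = 0.1).

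**Figure D3:**
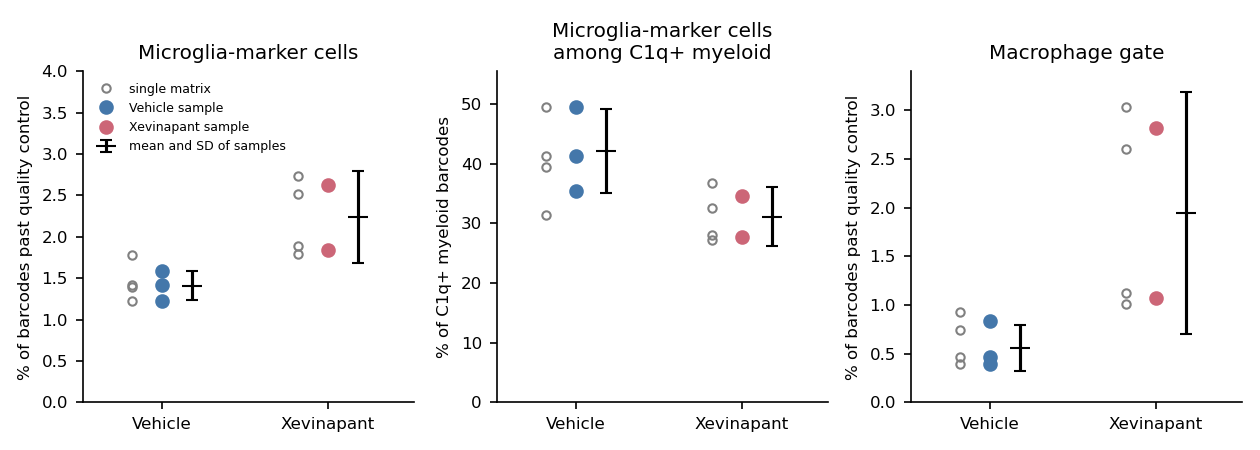
Microglia-marker cells as a percentage of barcodes past quality control and of C1q-positive myeloid barcodes, and the macrophage gate as a percentage of barcodes, by group. Open circles are single matrices, filled circles the 5 samples, and bars the mean and SD. The Xevinapant samples (2.63% and 1.84%) lie above the vehicle samples in the left panel, and below them in the middle panel (27.6% and 34.6%).

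Whether Xevinapant changed gene expression in microglia-marker cells was tested on UMIs summed per sample. In edgeR's quasi-likelihood test, 0 of 9970 genes passed an adjusted p of 0.05 (0.0%), with 830 at an unadjusted p under 0.05 (8.32%), of which 464 were higher (4.65%) and 366 lower (3.67%) in Xevinapant. DESeq2 called 26 genes (0.261%), 24 higher and 2 lower in Xevinapant. Of the 40 genes with the lowest p, 2 stood on the macrophage, 1 on the monocyte and 3 on the endothelial marker list. All 40 had samples of the groups that did not overlap, 37 of the 40 were higher in Xevinapant, and the smallest adjusted p was 0.151. In the whole table both Xevinapant samples lay above all vehicle samples for 13.1% of genes and below them for 11.1%. The genes named in the next 3 paragraphs were chosen after their values were seen, also where they stand on a marker list. The exceptions are Ccl12, named by the NF-kB list, and Slco1a4, named for its level of 0.

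Arg1 stood at 76.6, 45.8, 69.0, 1067 and 314 CPM. Both Xevinapant samples lay above every vehicle sample and the higher of them came from Xevinapant 1 and 2, with a log2 fold change of 3.45 ± 0.50 (SE) and an adjusted p of 0.157 in edgeR and of 0.0032 in DESeq2. Without Xevinapant 3 and 4, with the lone sample assumed to vary like the vehicle samples, it was 4.09 ± 0.26 (adjusted p = 0.0123 in edgeR), and without Xevinapant 1 and 2 it was 2.23 ± 0.25 (adjusted p = 0.221). In the sample with more of it, 37.3% of 233 cells had an Arg1 UMI (Wilson interval 31.4% to 43.7%), against 6.43% of 280 in Xevinapant 3 and 4 and 3.98% to 9.90% in the vehicle samples. F13a1, the coagulation factor gene of perivascular and monocyte-derived macrophages, stood at 85.6, 127, 34.9, 641 and 239, and Ccl7, a monocyte-attracting chemokine, at 116, 58.9, 31.8, 886 and 259. These 3 genes were therefore highest in the same sample. Ccl12, a chemokine of the NF-kB list, had a smaller contrast, at 246, 188, 299, 654 and 311 (log2 fold change 0.99 ± 0.34, adjusted p = 0.545 in edgeR). The scavenger receptor gene Cd163 stood at 6.96, 20.9, 0.775, 76.4 and 45.2, but in Xevinapant 3 and 4 a single cell held 95.3% of its UMIs. Lyve1, a hyaluronan receptor of perivascular macrophages and lymphatic vessels, stood at 2.98, 0, 0.775, 66.1 and 35.1, and 22 and 10 cells of the Xevinapant samples carried it. It was called with DESeq2 (adjusted p = 1.5e-05). With each matrix counted as a sample it was also called (adjusted p = 0.0312 in edgeR), but that fit takes the near-alike pairs as independent. Without Xevinapant 3 and 4 its log2 fold change was 5.62 ± 0.53.

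The summed level of the 16 listed macrophage markers was 4953 to 5953 CPM in vehicle and 9623 and 6914 in the Xevinapant samples, against 7694 to 15998 in the macrophage gate. Of the 15 tested, 5 were higher in both Xevinapant samples than in any vehicle sample (33.3%, against 13.1% of all genes tested). None of the 16 was at 0, and 0 of the 15 tested passed in edgeR. The Arg1 contrast was larger where fewer rule genes were seen. In cells with exactly 2 rule genes Arg1 stood at 79.4, 72.6, 84.6, 1555 and 627, and in cells with 3 or more at 74.5, 34.0, 62.0, 529 and 90.5. With 3 or more rule genes the Arg1 log2 fold change was 2.45 ± 0.61 (adjusted p = 0.204 in edgeR) and that of Cd163 was 0.82 ± 1.17 (adjusted p = 0.909). The part of macrophages or of mixed droplets in these levels was not tested.

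Few cells held most of the endothelial transcripts. Pecam1, an adhesion molecule of vessels, stood at 4.97, 6.54, 6.20, 47.1 and 30.0 CPM (log2 fold change 2.71 ± 0.34, adjusted p = 0.151 in edgeR). Cdh5, the cadherin of endothelial junctions, stood at 0.995, 1.31, 3.88, 27.4 and 19.4, and Col4a1 at 13.9, 28.8, 10.9, 211 and 115. Without Xevinapant 3 and 4, Pecam1 and Col4a1 passed (adjusted p = 0.0240 each in edgeR), and DESeq2 called all 3 of these genes. Over the 7 listed endothelial genes the summed level was 11.8 to 20.9 in vehicle and 128 and 98.9 in Xevinapant. 6 of the 7 were above all vehicle samples in both Xevinapant samples, and Slco1a4 was at 0. Only 4 of the 7 passed the filter on low counts. Only 13 of 233 and 3 of 280 Xevinapant cells had 2 or more endothelial genes, and they carried 83.7% and 69.2% of the endothelial UMIs of their samples. In contrast to Arg1, these transcripts stood higher with 3 or more rule genes than with 2 in the Xevinapant samples, as for Pecam1 (79.9 and 45.6 against 17.3 and 8.11). In the vehicle samples Pecam1 was lower with 3 or more rule genes (1.73, 5.66 and 3.38 against 9.34, 8.54 and 12.4). Those levels rest on 5, 5 and 8 Pecam1 UMIs over both sets of cells. Cdh5 held 1, 1 and 5 UMIs in the vehicle samples, too few to give a direction. Col4a1 was higher with 3 or more rule genes in vehicle 4 only. In the subset with 3 or more rule genes edgeR called 43 of 9286 genes (0.463%), all higher in Xevinapant, including 5 listed endothelial markers. After the 20 cells with 2 or more endothelial genes were left out of all microglia-marker cells, the log2 fold change of Col4a1 was 0.69 ± 0.43 instead of 3.29 ± 0.41. That of Arg1 was then 3.39 ± 0.45 (adjusted p = 0.262 in edgeR). As in the fit with those cells, 0 genes were called, and the subset with 3 or more rule genes was not refitted without them.

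**Figure D4:**
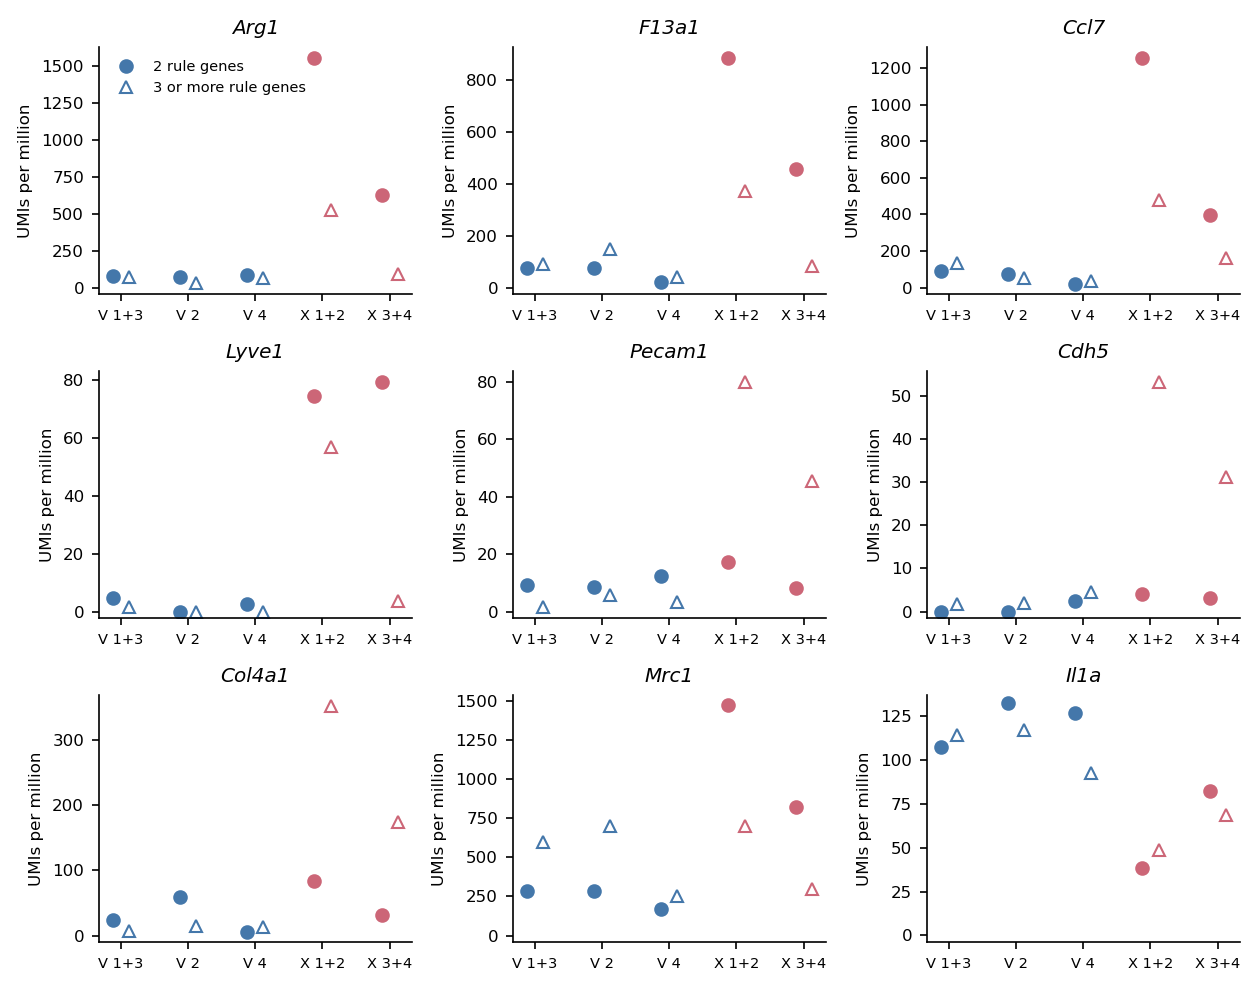
CPM of 9 genes in each of 5 samples (V, vehicle, blue; X, Xevinapant, red), for cells with exactly 2 rule genes (filled circles) and with 3 or more (open triangles). Arg1, F13a1 and Ccl7 are highest in Xevinapant cells with 2 rule genes, Pecam1, Cdh5 and Col4a1 in Xevinapant cells with 3 or more.

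The homeostatic genes of microglia were mostly lower in Xevinapant, with none past the test. Of 32 tested, 0 were called, 7 were below all vehicle samples in both Xevinapant samples (21.9%, against 11.1% of all genes), 3 were above, and the median log2 fold change was -0.20 against -7.5e-04 for all genes. Fcrls stood at 2275, 2804, 2060, 1313 and 1921 CPM (log2 fold change -0.57 ± 0.25, adjusted p = 0.599 in edgeR), and the groups did not overlap. Cst3, the cystatin that microglia secrete, stood at 3921, 3613, 4564, 3096 and 4162, where the groups overlapped. Among the rule genes, given as a description, P2ry12 stood at 192, 203, 205, 130 and 170, and Tmem119 at 594, 472, 971, 446 and 841.

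Genes of activation, antigen presentation and interferon response held no call in edgeR. Of 26 disease-associated microglia genes 0 were called by edgeR and 1 by DESeq2, the median was 0.03, and Apoe stood at 41009, 42761, 30813, 34371 and 42343 CPM. Of 14 genes of MHC class II presentation 0 were called and none separated the groups, with a median of -0.30. Cd74, the invariant chain, varied more within vehicle (1937, 2654 and 5350) than between the groups (1846 and 3447 in Xevinapant). The 18 genes of MHC class I presentation had a median of -0.13 and the 43 interferon response genes of 2.6e-03, with 0 called in either. Bst2, an interferon-induced membrane protein, overlapped fully at 3151, 2022, 3110, 2497 and 2808. Spp1, osteopontin, chosen after its values were seen, showed how unlike the samples were, at 4950, 2621, 879, 8838 and 1211.

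The genes of the drug's targets overlapped between the groups. Birc2, which encodes cIAP1, stood at 15.9, 14.4, 20.9, 15.3 and 22.4 CPM (log2 fold change 0.10 ± 0.29, adjusted p = 0.969 in edgeR). Birc3, which encodes cIAP2, stood at 32.8, 57.6, 48.9, 30.9 and 54.5 (-0.13 ± 0.28, adjusted p = 0.929). Xiap stood at 19.9, 17.0, 23.3, 10.9 and 17.7 (-0.52 ± 0.30, adjusted p = 0.680). None of these differences passed the test, which does not show that the levels were equal. Of 33 genes of the IAP, TNF receptor and noncanonical NF-kB machinery 0 were called, 8 lay above all vehicle samples in both Xevinapant samples (24.2%, against 13.1% of all genes) and 2 below, with a median of 0.10. Tnfrsf1b, a TNF receptor, stood at 376, 361, 325, 387 and 376, a separation smaller than the spread within vehicle. Of 34 NF-kB response and cytokine genes 0 were called, 6 lay above (17.6%) and 3 below (8.82%), and the median was -0.10. Il1a, a cytokine of that list, was lower, at 111, 122, 103, 43.3 and 74.4 (-0.95 ± 0.22, adjusted p = 0.402).

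Cell cycle genes were lower in Xevinapant on balance, again with none called. Of 46 tested, 10 were below all vehicle samples in both Xevinapant samples (21.7%, against 11.1% of all genes) and 1 was above, with a median of -0.27. Mki67 stood at 338, 493, 465, 230 and 312 CPM (log2 fold change -0.68 ± 0.21, adjusted p = 0.543 in edgeR), and Top2a, a topoisomerase of dividing cells, at 258, 395, 425, 299.8 and 286, where the groups overlapped. The share of thinned cells with cell cycle genes was 23.3%, 29.4% and 35.5% in vehicle and 22.2% and 21.3% in Xevinapant (29.4% ± 6.10 against 21.8% ± 0.607, exact permutation p = 0.2). The summed tumor list stood at 660 to 992 CPM in vehicle and 513 and 724 in Xevinapant, where the groups overlapped, and its part was not tested.

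Metabolic, clearance and inhibitory genes held no call in edgeR either, while DESeq2 called 1 gene on the complement list and 1 on the checkpoint list. The counts below stand beside 13.1% of all genes above and 11.1% below. Of 38 hypoxia and glycolysis genes 6 lay above (15.8%) and 3 below (7.89%), shares near those of all genes, with a median of 0.07, and Hmox1, the heme oxygenase, ranged widely at 3222, 3716, 1265, 6833 and 1799 CPM. Of 34 genes of complement, Fc receptors and phagocytosis 9 lay above (26.5%) and 4 below (11.8%), with a median of 0.21, which was 0.03 in cells with 3 or more rule genes. Of 21 checkpoint and immunosuppressive genes 6 lay above (28.6%) and 3 below (14.3%) with a median of 0.21, and that median was -0.03 with 3 or more rule genes. Of 40 lysosome and lipid genes 11 lay below (27.5%) and 1 above (2.50%), with a median of -0.06. Tgfbr1, a receptor for transforming growth factor beta, stood at 899, 865, 949, 370 and 805, below vehicle in both samples but mainly in Xevinapant 1 and 2 (-0.64 ± 0.30, adjusted p = 0.610 in edgeR). The 18 genes of that pathway had a median of -8.6e-03. Of 37 other sensors, purinergic and Siglec genes among them, 2 lay above (5.41%) and 4 below (10.8%), with a median of -0.15. Of 29 immediate early and dissociation stress genes 9 lay above (31.0%) and 2 below (6.90%), with a median of 0.10.

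**Figure D5:**
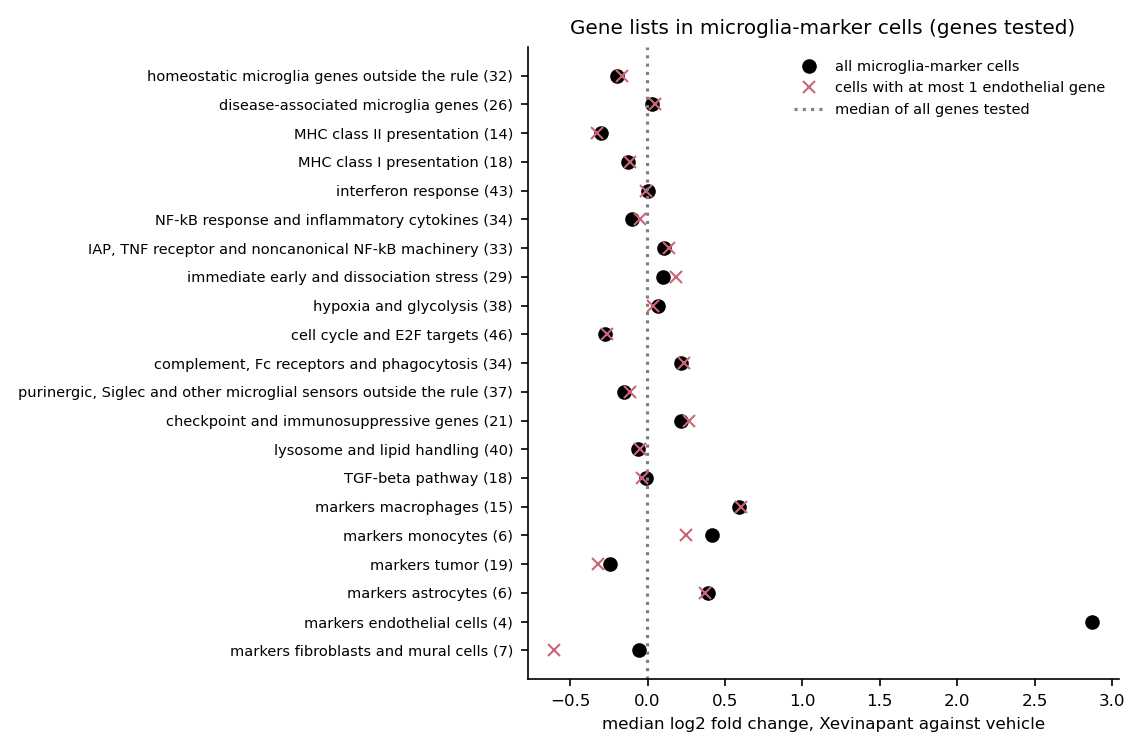
Median log2 fold change, Xevinapant against vehicle, of each gene list with at least 4 tested genes (number tested in brackets), in all microglia-marker cells (black) and without the 20 cells holding 2 or more endothelial genes (crosses). The 15 functional lists lie between -0.30 and 0.21. Macrophage markers lie at 0.59, and the endothelial list at 2.87, where no gene passed the count filter once those cells were left out.

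Lists of other cell types set the scale for the rest. Neutrophil markers summed to 133 to 156 CPM in vehicle and 207 in each Xevinapant sample, and dendritic cell markers to 91.5 to 153 in vehicle and 177 and 183 in Xevinapant, so both lay above all vehicle samples as the macrophage sum did. Their part in the results was not tested. T and NK, B cell, oligodendrocyte and neuron lists each summed to 1.31 to 187 CPM. Of these lists and the neutrophil list, Ly6g, Camp and Ngp, Trbc2, Gzmb and Ncr1, Jchain, Mog and Mobp, and Gad2 and Stmn2 were at 0. Monocyte markers summed to 426 to 744 in vehicle and 545 and 623 in Xevinapant, where the groups overlapped. Yet 6 of the 9 monocyte markers were higher in both Xevinapant samples than in any vehicle sample. Of the 9, 6 were tested in edgeR and 0 passed. Fibroblast and mural cell markers were the least even, at 1362, 14171, 42.7, 9103 and 580. Astrocyte markers summed to 237 to 364 and 356 and 428, and erythrocyte markers to 39.3 to 235 and 299 and 204.

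The response of microglia-marker cells was compared with that of the macrophage gate in the same samples. The gate was shallow in vehicle, down to 99280 UMIs in vehicle 2. For the difference of responses, edgeR called 0 of 9970 genes (0.0%), with 446 at an unadjusted p under 0.05 (4.47%), and DESeq2 called 3. Pecam1 was among the lowest p, with a log2 fold change of 2.71 in microglia-marker cells and -1.31 in the macrophage gate. The difference was 4.02 ± 0.65 (SE, adjusted p = 0.121 in edgeR). In the macrophage gate Pecam1 was uneven, at 312, 20.1, 115, 106 and 21.3 CPM. The part of stray endothelial transcripts in this difference was not tested. Prnd, a prion-like gene of endothelial cells, came first with an adjusted p of 0.0515 in edgeR and a difference of 9.18 ± 1.24, a fitted value that depends on libraries at 0. For Arg1 the macrophage gate had a log2 fold change of 1.41 against 3.45. Arg1 is 1 of the 6 genes by which the gate took its cells, so these 2 values are only a description. For Il1a the values were -1.02 against -0.95.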

How the data were processed

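Single cells of 2 GEO samples were measured with a probe-based kit for fixed cells. Per the labels and the file headers, the authors deposited UMI counts per gene and barcode (8 matrices, 19059 genes) after mapping to mm10 with Cell Ranger, whose version differs between the methods and the headers. Totals ran from 71835789 to 300206053 UMIs per matrix. Matrices of the Xevinapant sample are named as Vehicle, and their group was taken from the label.

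Quality limits follow the labels. Doublets were kept in the main results, and Scrublet (scanpy 1.11.5) scores were used in an alternative that removed 0.8% per 1000 barcodes. Counts were summed per sample (CPM on their totals), which gave 764180 to 3208291 UMIs of microglia-marker cells, and fitted with edgeR 4.0.16 (TMM, filterByExpr, quasi-likelihood, Benjamini-Hochberg), with treatment as the only term. The difference of responses had the sample as a block and an interaction term. DESeq2 1.42.0 was an alternative. Shares and medians over samples were compared by exact two-sided permutation. Cell cycle shares used cells thinned to 2000 UMIs. Symbols given to more than 1 gene ID were kept apart by ID. The fit was tested on simulated data.

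Named genes were the genes of the rule, Birc2, Birc3, Xiap, members of each list past the test or, where none passed, the 3 of highest level, and the 10 highest and 5 lowest log2 ratios to the macrophage gate at 100 CPM or more. Some genes that this rule names are not reported here. Levels were not compared between genes, as probes differ. The members and the gene lists were chosen with earlier results of these data known. The paper describes samples of individual mice, but nothing says which matrix came from which mouse. The p-values therefore measure only the spread between the samples as joined here.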

Additional observations from a re-analysis of the deposited data

How the results depend on the processing

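With each matrix counted as 1 sample, 3 Xevinapant minus vehicle differences had an exact permutation p of 0.0286 each (two-sided). These were the share of barcodes (0.783 percentage points), the macrophage gate (1.31) and the median mitochondrial share (-0.356). In the same setting 1 gene was called. This setting takes the near-alike pairs as independent samples, so its p-values do not measure the spread between the samples as joined. The count of called genes, 0 in the chosen fit, was 43 with 3 or more rule genes, 3 without any tumor UMI, 6 after thinning, 26 with DESeq2 and 398 with no filter on low counts. Leaving out samples in turn gave 0 to 21, the 21 without Xevinapant 3 and 4, where the lone sample is assumed to vary like the others. For the difference of responses the count was 17 with 3 or more rule genes, 3 without tumor UMIs, 8 without the highest doublet scores, 1 at 1000 genes or more, 3 with DESeq2, 1 with DESeq2 size factors and 114 with no filter, and 0 to 40 on leaving out samples, with 20 without vehicle 2, 2 without vehicle 4, 40 without Xevinapant 1 and 2 and 20 without Xevinapant 3 and 4. The cause was not tested. After seeing the data, further limits were tried, on tumor UMIs per 10000, on endothelial genes and on macrophage genes, and each gave 0 calls, the last with 359 genes tested in 63 cells. Of 72 genes, each followed through the fits that tested it, 33 turned sign in some fit and none of these was called where it did. The medians of the 15 functional lists kept their sign with DESeq2 and with totals without TMM, and with each matrix counted as 1 sample those of the disease-associated list (-0.08) and the interferon list (-0.06) turned. The shares, depth, mitochondrial and cell cycle differences kept their direction in the alternatives run for them. No paired analysis was possible because the labels give 1 library per group and the matrix numbers name no shared animal.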
